A study of Sus scrofa with 23 samples.

Results

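Transcripts of 7 genes that build or act in the primary cilium of the kidney tubule were followed in the kidney cortex of newborn pigs, by their genotype labels for CFTR, the chloride channel of cystic fibrosis (CF). The genes were PKD1, PKD2, PKHD1, IFT88, INVS, BICC1 and KIF3A, taken by symbol from the table that assigns transcripts to genes, and they were 7 of 26687 genes in that table. All 7 were among the 20921 genes with enough counts to be tested. RNA-Seq of total RNA after removal of ribosomal RNA gave 1 library from each of 23 newborn pigs of CFTR+/- matings. By their genotype labels 11 pigs were CFTR-/- (CF), 6 were CFTR+/- (HET) and 6 were CFTR+/+ (WT), and WT and HET together formed the 12 non-CF pigs. The labels gave neither the disrupted site nor sex or litter, and no pig carried a further labelled allele or received a labelled agent.

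Most tubule cells carry a single, immotile primary cilium that reaches into the lumen. Polycystin-1 and polycystin-2 form a receptor and channel complex on this cilium, and cargo reaches its tip on intraflagellar transport (IFT) trains drawn by kinesin-2. Loss of the polycystins causes autosomal dominant polycystic kidney disease, loss of fibrocystin the recessive form, and loss of several cilium proteins also gives cystic kidneys. CFTR is the channel through which chloride enters expanding cysts in polycystic kidneys.

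Values are counts scaled to library size (CPM) after TMM scaling for comparisons between pigs, and values that also allow for transcript length (TPM) for comparisons between genes. Libraries held 32901281 to 52952273 estimated counts, so that the weakest member, KIF3A, still had 961 to 1909 counts in each pig. Proximal tubule and podocyte markers had counts in every library, as kidney cortex should have. CFTR transcript was higher in the libraries labelled CF and HET than in those labelled WT. It lay between 1.27 and 3.67 CPM in WT, between 9.41 and 17.5 CPM in HET and between 12.5 and 23.5 CPM in the libraries labelled CF, and its log2 fold change was 2.47 for HET against WT (SE 0.19, adjusted p = 5.1e-08) and 3.14 for CF against WT (SE 0.19, adjusted p = 1.2e-10, edgeR). These levels run against a loss of transcript and do not check the labels, CFTR protein was not measured here, and every direction below is between libraries as labelled. On the second axis of a multidimensional scaling plot the libraries of pigs 7 to 11 and 19 to 23 (later-numbered, 5 CF and 5 non-CF) stood apart from those of pigs 1 to 6 and 12 to 18 (earlier-numbered, 6 CF and 7 non-CF), and what the numbers stand for is not given in the labels. The division was drawn from these libraries themselves, so the members are also given within each part. The first axis held 17.2% of the variation beside 10.6% for the second, and it also divided the libraries. CF pigs 2, 3, 6, 8 and 10, HET pig 14 and WT pigs 16, 18, 22 and 23 lay at -0.45 or below. The other pigs lay at 0.19 or above, HET pigs 19 to 21 among them. That split was uneven by genotype and is not explained by the labels, and the members are not given by it.

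Per transcript length, 3 members stood well above the other 4. Mean TPM was 50.3 ± 7.18 for BICC1, 49.2 ± 8.0 for PKHD1 and 45.9 ± 5.12 for PKD2 (SD, n = 23). These neighbours were not separated: BICC1 exceeded PKHD1 in 13 of 23 pigs, and PKHD1 exceeded PKD2 in 13 of 23. IFT88 followed at 14.4 ± 2.38 TPM and lay below PKD2 in all 23 pigs. INVS (11.2 ± 1.13 TPM) was below IFT88 in all 23 pigs and above PKD1 (9.64 ± 1.52 TPM) in 19, and PKD1 was above KIF3A (8.76 ± 1.38 TPM) in 15. The channel subunit was therefore listed at 4.90 ± 1.04 times the TPM of the receptor subunit, with means of 4.75 in CF, 5.13 in HET and 4.94 in WT pigs. TPM between pigs must be read with care, because 1 noncoding transcript took 42.1% to 53.2% of each library's TPM.

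None of the 7 members passed the adjusted p between genotypes. With edgeR, 0 of 7 passed an adjusted p of 0.05 for CF against non-CF, where 0.349% of all tested genes passed. For CF against WT it was 0 of 7 (0.349% of all genes), for CF against HET 0 of 7 (0% of all genes) and for HET against WT 0 of 7 (0.00478% of all genes). At an unadjusted p of 0.05 the number was also 0 of 7 in each of the 4 comparisons, where 13.7%, 14.1%, 9.89% and 7.99% of all genes passed, and DESeq2 called 0 of 7 in each, where it called 3.06%, 3.03%, 0.333% and 0.147% of all genes. For CF against non-CF, 5 members had a higher and 2 a lower estimate, with a median log2 fold change of 0.043 beside -0.0005 over all tested genes. The precision of the estimates differed between members. The SE of INVS was smaller than that of 97.9% of tested genes, that of PKD2 smaller than that of 96.1%, and that of PKD1, the widest, smaller than that of only 45.8%. In cortex tissue, fewer cells of a type and less RNA per cell cannot be told apart.

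**Figure D1:**
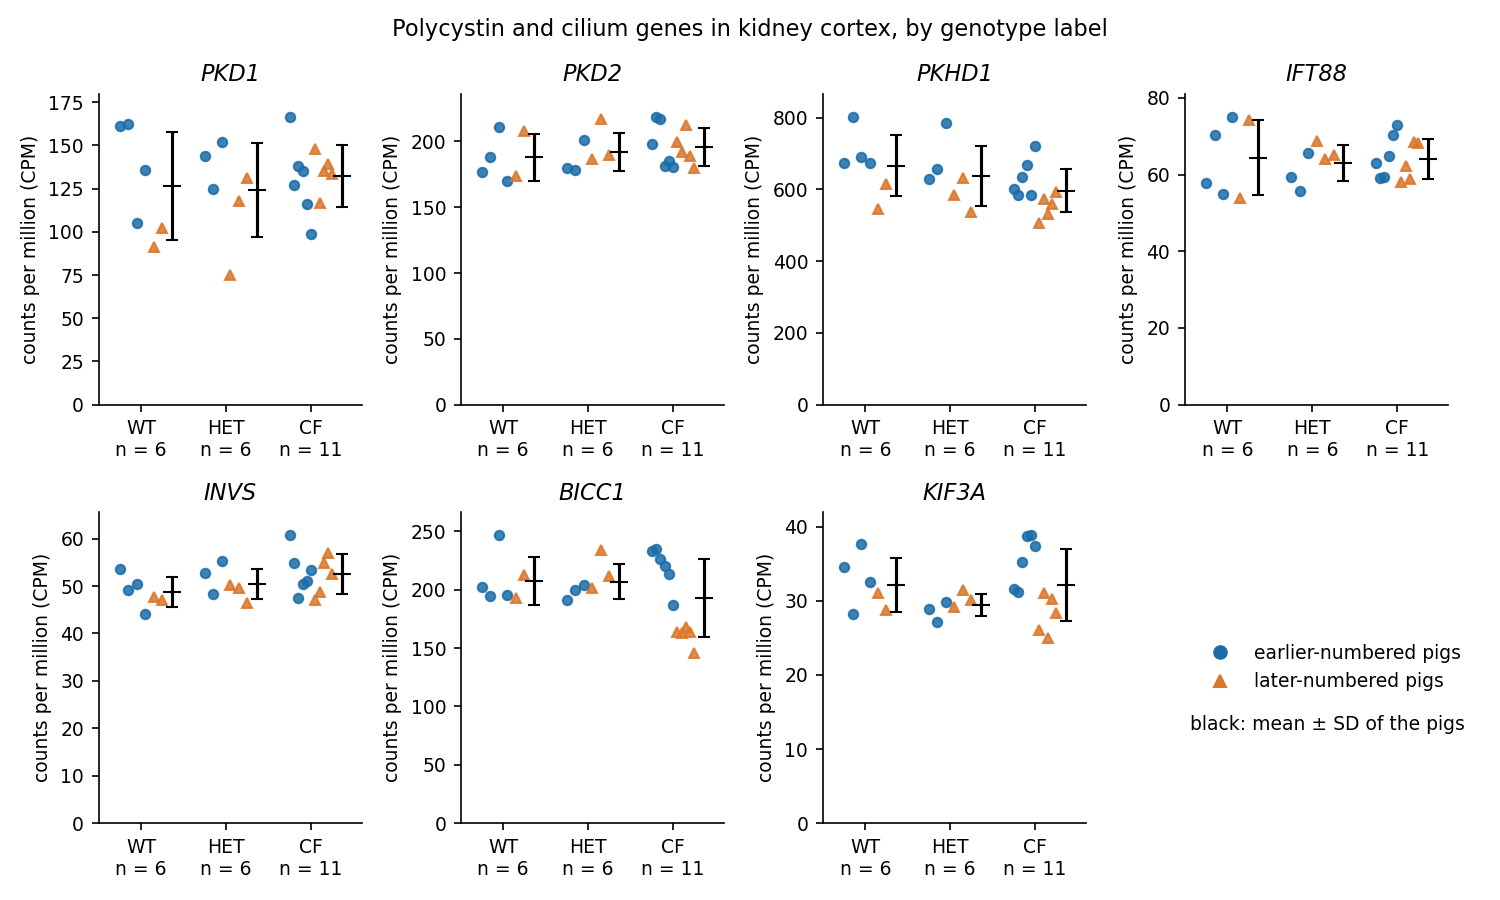
CPM of the 7 members (vertical axes, from 0) in single pigs by genotype label, with circles for earlier-numbered and triangles for later-numbered pigs and black bars for mean ± SD. The 3 genotypes overlap for every member, and the later-numbered CF pigs sit lowest for BICC1, between 146 and 168 CPM.

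PKD1 encodes polycystin-1, the large receptor-like partner of the complex. Its CPM ran from 98.8 over a median of 135.0 to 167 in CF pigs, from 75.3 over 127.9 to 152 in HET and from 91.2 over 120.3 to 162 in WT. It was the most variable member, with a coefficient of variation of 18.2% over the 23 pigs, and the genotypes overlapped over most of their range. The mean was 132 ± 17.8 CPM in CF (n = 11) and 125 ± 27.9 in non-CF (n = 12), a log2 fold change of 0.08 with a 95% interval of -0.15 to 0.30 (adjusted p = 0.82, edgeR). Leaving out 1 library moved it between 0.027 (without HET pig 19) and 0.12 (without WT pig 12), and it passed in none of these 23 fits. Its interval leaves room for a change between -9.71% and 23.4%.

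PKD2 encodes polycystin-2, the cation channel of the complex. CF pigs ran from 180.1 over a median of 192 to 219 CPM, HET pigs from 178 over 188 to 217 and WT pigs from 169.6 over 183 to 211. These ranges lay almost on top of each other. For PKD2 the log2 fold change of CF against non-CF was 0.04 with an interval of -0.07 to 0.15 (adjusted p = 0.79, edgeR), that is, between -4.47% and 11.2%. Its SD of log2 CPM was larger than that of only 3.24% of tested genes.

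PKHD1 encodes fibrocystin, a ciliary and apical membrane protein of collecting duct and bile duct cells. It had 507, 586 and 720.4 CPM as lowest, median and highest value in CF, 537, 631 and 786 in HET and 545, 673 and 803 in WT. Of the CF pigs, 9 of 11 lay below the non-CF median and 10 of 11 below the WT median, while the ranges overlapped. The log2 fold change was -0.13 against non-CF (interval -0.28 to 0.02, unadjusted p = 0.084, adjusted p = 0.44, edgeR) and -0.16 against WT (interval -0.34 to 0.02, adjusted p = 0.42). PKHD1 also differed with pig number: all 10 later-numbered pigs lay below the median of the 13 earlier-numbered ones, with 507 to 632 CPM in later and 583 to 803 CPM in earlier pigs. The parts were drawn from these same libraries, and the difference between them was larger than that of 75.0% of tested genes. It is therefore not particular to PKHD1. Within each part the estimate for CF against non-CF was -0.15 (SE 0.09) in earlier and -0.07 (SE 0.08) in later pigs.

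IFT88 encodes a core subunit of the IFT-B train, without which cilia do not form. CF pigs ran from 57.9 over 63.0 to 73.0 CPM, HET from 55.7 over 64.6 to 68.8 and WT from 54.0 over 64.1 to 75.1. Means were 64.1 ± 5.24 CPM in CF and 63.7 ± 7.38 in non-CF. Its log2 fold change of 0.0084 (interval -0.12 to 0.14, adjusted p = 0.98, edgeR) was the smallest among the members in this comparison, and its sign changed with upper-quartile scaling and when single pigs were left out.

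INVS encodes inversin, which marks a compartment in the lower part of the cilium and is mutated in infantile nephronophthisis. CF pigs ran from 47.1 over 52.5 to 60.7 CPM, HET from 46.4 over 49.9 to 55.2 and WT from 44.1 over 48.5 to 53.5. Of the CF pigs, 8 of 11 exceeded the non-CF median, and the ranges overlapped. The estimate for CF against non-CF was 0.085 on the log2 scale (interval -0.02 to 0.19, unadjusted p = 0.096, adjusted p = 0.47, edgeR), between -1.11% and 13.8%.

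BICC1 encodes an RNA-binding protein whose loss gives cystic kidneys in mice and fish. CF pigs ran from 146 over 187 to 235 CPM, HET from 191 over 203 to 234 and WT from 193 over 199 to 247. The lowest CF pigs lay below every non-CF pig and the highest did not. Against non-CF the log2 fold change was -0.10 (interval -0.27 to 0.06, adjusted p = 0.62, edgeR).

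KIF3A encodes a motor subunit of the kinesin-2 that draws IFT-B trains. CF pigs ran from 25.0 over 31.1 to 38.9 CPM, HET from 27.1 over 29.5 to 31.5 and WT from 28.2 over 31.8 to 37.7. HET pigs were the least variable, and their range lay inside that of CF. For CF against non-CF the estimate was 0.063 on the log2 scale (interval -0.09 to 0.22, adjusted p = 0.78, edgeR), and it was -0.03 with counts scaled by transcript length. All 10 later-numbered pigs lay below the median of the earlier-numbered ones, at 29.1 ± 2.18 against 33.2 ± 4.13 CPM. This difference was larger than that of 67.0% of tested genes, so it is not particular to KIF3A.

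**Figure D2:**
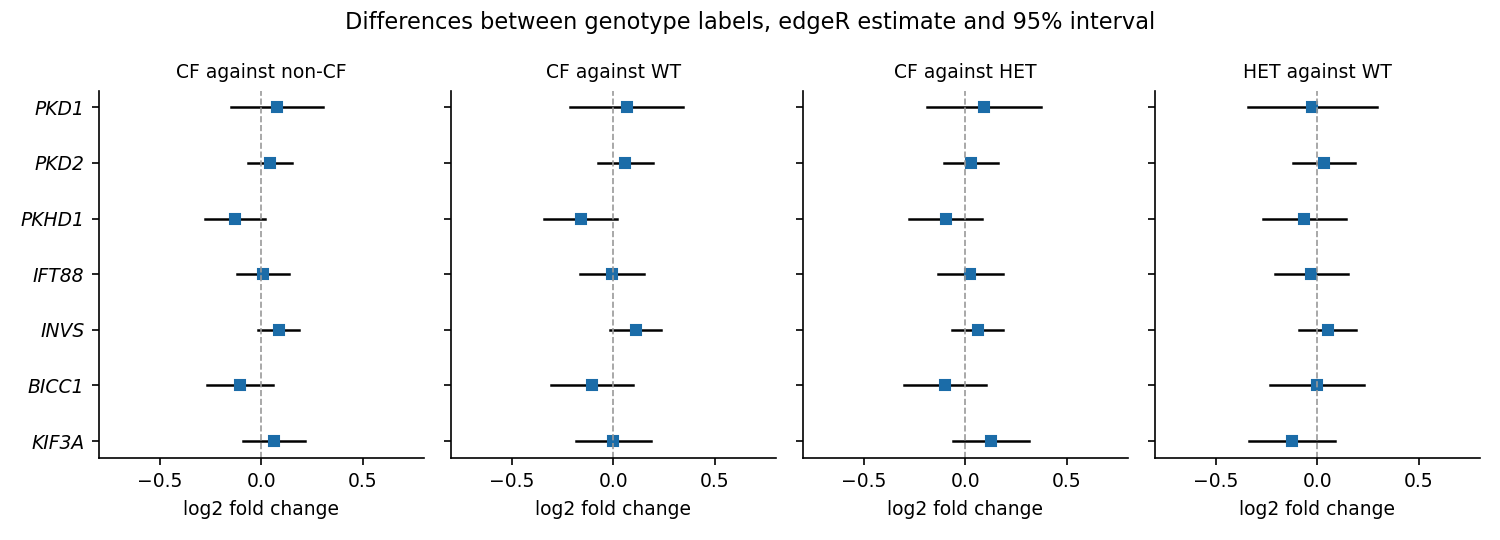
Log2 fold change (horizontal axes) of each member in the 4 comparisons, squares for the edgeR estimate and lines for its 95% interval, with the dashed line at no difference. Every interval crosses 0, and the widest belong to PKD1, which for CF against non-CF runs from -0.15 to 0.30.

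The estimates for HET against WT lay between -0.13 for KIF3A (interval -0.34 to 0.09, adjusted p = 0.78, edgeR) and 0.05 for INVS (interval -0.09 to 0.19, adjusted p = 0.88). For CF against HET they lay between -0.10 for BICC1 and 0.13 for KIF3A. These comparisons share libraries with those above.

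Between the earlier-numbered and the later-numbered pigs the CF estimates of 4 members had opposite signs (PKD1, IFT88, BICC1 and KIF3A), and BICC1 had the smallest p for the difference. Among later-numbered pigs BICC1 had 163, 163, 168, 164 and 146 CPM in the CF pigs 7 to 11, 201, 234 and 212 CPM in the HET pigs 19 to 21, and 193 and 213 CPM in the WT pigs 22 and 23. All 5 CF pigs lay below all 5 non-CF pigs, as happened for 4.66% of the genes tested in these pigs in either direction. The log2 fold change in later-numbered pigs was -0.38 (SE 0.07, interval -0.54 to -0.22, adjusted p = 0.020, edgeR), and BICC1 was the 1 of 7 members to pass there, where 2.27% of genes passed. An exact permutation test, two-sided, gave p = 0.0079, the smallest that 5 against 5 pigs allow. Leaving out each of the 10 pigs in turn gave differences between -0.42 and -0.35.

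Among earlier-numbered pigs the order was not repeated. BICC1 ran from 187 to 235 CPM in CF (n = 6) and from 191 to 247 in non-CF (n = 7), with a log2 fold change of 0.10 (interval -0.06 to 0.27, adjusted p = 0.73, edgeR). The difference between both effects was -0.49 (SE 0.11, unadjusted p = 0.00011) and did not pass adjustment over all genes (adjusted p = 0.069, edgeR interaction term), which 0.0191% of all genes did, while 10.1% had an unadjusted p under 0.05. Markers of other cells also differed there. The summed CPM of 7 loop of Henle and distal tubule markers lay between 1380 and 1829 in later-numbered CF pigs and between 1863 and 2465 in later-numbered non-CF pigs, and 6 of the 7 had lower estimates there. SLC12A1, SLC12A3 and CALB1 were called lower in these pigs with edgeR and over all 23 pigs with DESeq2. The summed CPM of 6 endothelium markers lay between 459 and 574 in later-numbered CF and between 577 and 623 in later-numbered non-CF pigs, but 4 of the 6 had higher and 2 lower estimates (median 0.044), and KDR, the most abundant of them, was the 1 called, lower. Of 10 collecting duct markers, AQP2 and AQP3 were called lower (-0.79 and -0.60, adjusted p = 0.029 and 0.021) and HSD11B2 higher (0.51, adjusted p = 0.012), with a list median of 0.019 and summed CPM of 507 to 649 in later-numbered CF and 445 to 544 in later-numbered non-CF pigs. Of 5 tested immune markers 0 were called (median -0.42). The part of these markers in the BICC1 difference was not tested.

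Of the others with opposite signs, IFT88 had 0.06 in earlier and -0.04 in later pigs (adjusted p of the difference 0.85, edgeR). PKD1 was 135 ± 11.4 CPM in CF and 103 ± 21.8 in non-CF among later-numbered pigs (log2 fold change 0.39, interval 0.10 to 0.67, adjusted p = 0.14, edgeR) and 130.3 ± 22.9 against 141 ± 20.9 among earlier ones (-0.11, interval -0.37 to 0.15, adjusted p = 0.84). KIF3A had 0.19 (interval -0.01 to 0.39) in earlier-numbered and -0.09 (interval -0.26 to 0.08) in later-numbered pigs. By the interaction term the difference had an adjusted p of 0.36 for PKD1 and 0.43 for KIF3A (edgeR).

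**Figure D3:**
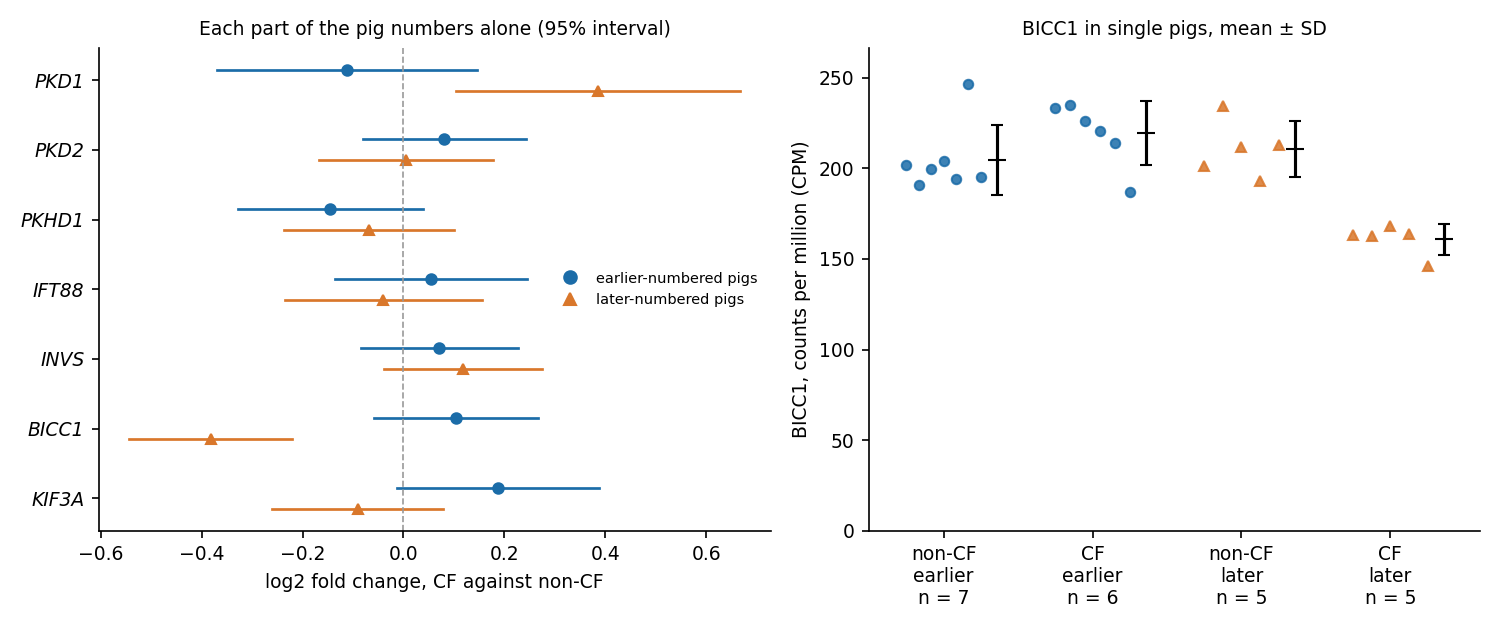
Left, log2 fold change of CF against non-CF (horizontal axis) with its 95% interval for each member, fitted in earlier-numbered (circles) and later-numbered pigs (triangles) alone. Right, BICC1 CPM in single pigs with mean ± SD in black, where the 5 later-numbered CF pigs, at 146 to 168 CPM, lie below the other 18.

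PKD1 varied with the base composition of the library, a relation that was examined after these data had been seen. With 67.5% G and C in its longest transcript, it lay at percentile 98.1 of the tested genes. For each library the median log2 CPM of the 2090 genes poorest in G and C was subtracted from that of the 2090 richest (10% of the genes each, PKD1 itself among the latter), and this gap, centred on its mean, ran from -0.45 to 0.47. Its mean was -0.031 ± 0.26 in CF and 0.028 ± 0.25 in non-CF pigs. Among earlier-numbered pigs the gap was lower on average in CF than in non-CF, and among later-numbered pigs higher, with overlapping ranges. The PKD1 estimates within these parts had the same order, and the part of the gap in them was not tested. PKD1 correlated with the gap over the 23 pigs (Pearson r = 0.83, Spearman rho = 0.82, permutation p = 1e-05 for each, the smallest that 100000 permutations can give, and 7e-05 adjusted over the 7 members). Without the 2 pigs farthest from the median gap r was 0.80, and within earlier-numbered and later-numbered pigs it was 0.91 and 0.81. Only 0.602% of tested genes had a higher r with the gap. The genes richest in G and C set the gap, so a relation is likely for any of them. The permutation p therefore does not set PKD1 apart from these genes, and its r was not compared with theirs alone.

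None of the other 6 members passed adjustment. KIF3A, the member poorest in G and C at 36.3%, had r = -0.46 (rho = -0.45, permutation p = 0.030, adjusted p = 0.10), -0.44 without the 2 farthest pigs, -0.72 within earlier and -0.42 within later pigs. BICC1 had r = 0.030 (permutation p = 0.89).

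**Figure D4:**
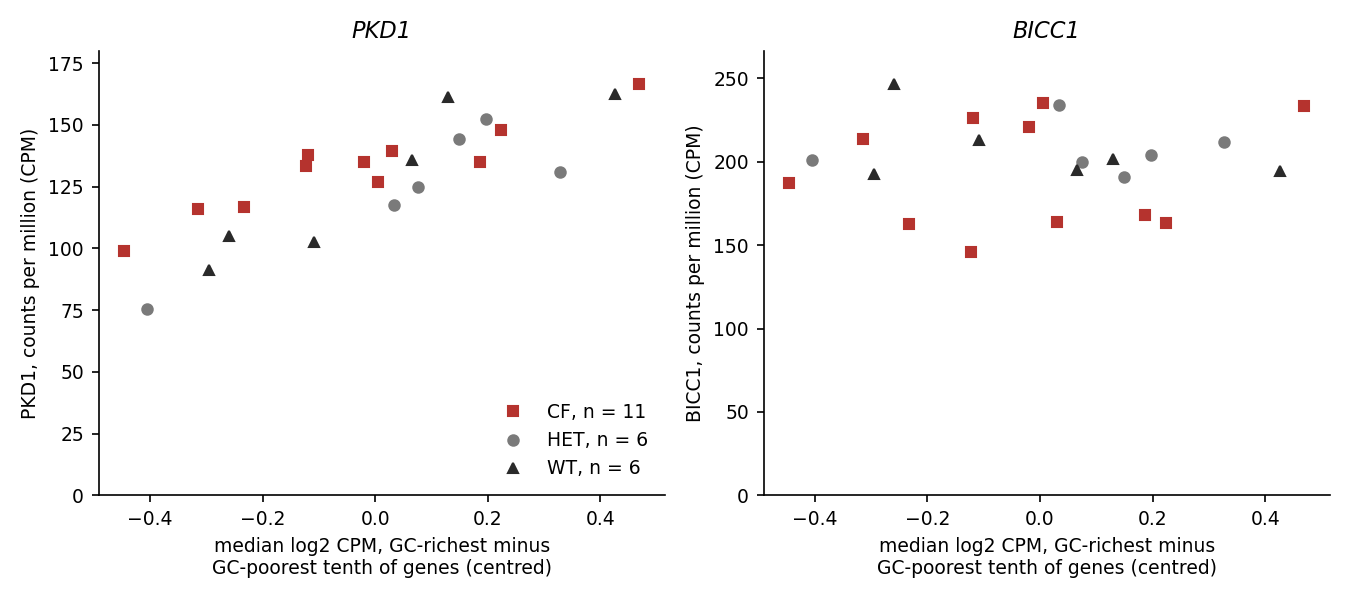
CPM of PKD1 and BICC1 (vertical axes) against the gap in median log2 CPM between the 2090 genes richest and the 2090 poorest in G and C (horizontal axes), 1 point for each pig by genotype. PKD1 climbs with the gap (r = 0.83), and BICC1 does not (r = 0.030).

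With log2 CPM, 0 of 21 pairs of members passed adjustment, and 1 had an unadjusted p under 0.05. Over the 23 pigs, Pearson r of log2 CPM for the 21 pairs ran from -0.20 to 0.52 with a median of 0.05, and 12 pairs were positive. The polycystin partners PKD1 and PKD2 had r = 0.05 (rho = 0.03, permutation p = 0.84, adjusted p = 0.93). The highest pair, BICC1 and KIF3A, had r = 0.52 (rho = 0.55, permutation p = 0.012) and did not pass adjustment over 21 pairs (adjusted p = 0.25), but did after removal of genotype means (r = 0.62, permutation test, adjusted p = 0.037). With log2 TPM 13 of 21 pairs passed, and the median r was 0.51. All TPM of a pig share 1 sum, so the caution given above for TPM between pigs holds for this count. No share over pairs of other genes is given beside it. With log2 CPM and without the 2 pigs farthest from the BICC1 median, r of BICC1 and KIF3A was 0.54. Within earlier-numbered and later-numbered pigs it was 0.36 and 0.43. PKHD1 and IFT88 had r = 0.27 over all pigs (permutation p = 0.21, adjusted p = 0.75).

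The genes most like each member were sought among 18077 other genes by Pearson r of log2 CPM over the 23 pigs, as a description. GPSM1 (0.94), LOC102159820 (0.93) and ZNF385A (0.92) were most like PKD1, and their longest transcripts had 69.5%, 63.4% and 63.4% G and C. SLC25A42 (0.84) and the BMP response genes ID1 (0.83) and ID3 (0.82) were most like BICC1. Their log2 fold changes for CF against non-CF were -0.55, -0.35 and -0.61 in later-numbered and 0.037, 0.10 and -0.12 in earlier-numbered pigs. They were chosen by r with BICC1 over these same pigs, so a shared difference in later-numbered pigs adds no support. TRIQK (0.85), VAMP4 (0.84) and KCTD12 (0.82) were most like KIF3A. For PKHD1 they were WDR59 (0.78), UVSSA (0.77) and FILIP1 (0.77), for PKD2 RASL11B (0.73), MAL2 (0.70) and PDGFRL (0.67), for INVS SULT1E1 (0.74), LOC102166616 (0.73) and ZBTB22 (0.72), and for IFT88 LOC100517340 (0.70), LOC102157766 (0.65) and DNAI2 (0.65). No member was among the 3 genes most like another.

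Several members have transcripts that differ in their ends or exons, and the deposited counts split each gene among them. Shares of a gene's counts were compared for the 20 transcripts that held 10% to 90% of their gene's counts on average, with a two-sided permutation test adjusted over the 20. One passed, in KIF3A, and 5 of the 20 had an unadjusted p under 0.05. Shares within 1 gene depend on each other, and transcripts of other genes were not tested. How often such differences occur over all genes is therefore not known here. KIF3A lies on the minus strand of Sscrofa11.1 at chr2:134932339-135069408. Of its 7 annotated transcripts, XM_013995119.2 has a different start. The transcripts also differ in a pair of internal coding exons and in the piece of the last exon that ends the reading frame. These pieces are shown, from the RefSeq genome, because the transcripts with the largest shares differ in them. Coding bases are in capitals and neighbouring intron bases in lower case, 5′ to 3′ on the minus strand.
72-base internal exon (chr2:135015291-135015402): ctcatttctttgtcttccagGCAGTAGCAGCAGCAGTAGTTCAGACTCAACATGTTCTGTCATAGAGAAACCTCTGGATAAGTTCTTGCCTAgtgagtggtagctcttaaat
9-base internal exon (chr2:135013194-135013242): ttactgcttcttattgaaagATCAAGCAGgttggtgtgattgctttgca
49-base end of the reading frame, last exon nearer the gene start (chr2:135002531-135002599): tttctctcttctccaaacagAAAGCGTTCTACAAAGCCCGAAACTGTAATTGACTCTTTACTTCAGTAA
4-base end of the reading frame, last exon farther from it (chr2:134933111-134933134): cttttattttccctttctagGTGA

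The KIF3A transcript XM_003354275.5 holds neither internal exon and ends in the nearer last exon. Its share of KIF3A counts ran from 39.6% over a median of 50% to 59.8% in CF, from 37.3% over 39.4% to 43.2% in HET and from 30.3% over 40.6% to 50% in WT pigs. All 11 CF pigs exceeded the non-CF median, although the ranges overlapped. The mean share was 49.3 ± 6.81% in CF and 39.9 ± 5.44% in non-CF, a difference of 9.44 percentage points (SE 2.58, permutation p = 0.0016, adjusted p = 0.032). With shares of TPM the difference was 9.19 points (adjusted p = 0.024). It was 12.8 points in earlier-numbered pigs (exact permutation p = 0.0023) and 5.76 in later-numbered ones (exact permutation p = 0.135).

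The transcript XM_021085422.1, which holds the 9-base exon and ends in the farther last exon, took 27.3 ± 8.77% of KIF3A counts in CF and 35.8 ± 4.07% in non-CF (difference -8.46 points, permutation p = 0.0075, adjusted p = 0.057). XM_005661644.2, which also ends in the farther last exon, took 8.04 ± 2.28% and 8.36 ± 2.97% of counts and 10.7 ± 3.31% and 10.4 ± 3.66% of TPM. XM_013995118.2, with the 72-base exon and the nearer end, took 12.3 ± 4.93% and 13.2 ± 4.40%. In groupings chosen after these values were seen, the 5 transcripts with the nearer last exon took 64.6 ± 7.83% in CF and 55.9 ± 3.22% in non-CF (a difference of 11.3 points in earlier-numbered and 5.84 in later-numbered pigs), the 5 with the 9-base exon 38.4 ± 6.87% and 46.9 ± 3.13%, and the 4 with the 72-base exon 23.4 ± 7.61% and 24.4 ± 5.37%. These sums hold the transcripts given above and add no test to them. Since XM_003354275.5 and XM_021085422.1 differ in both features and hold most counts, their parts cannot be told apart here. The farther last exon lies within an intron of RAD50 on the opposite strand and shares no exon base with it.

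**Figure D5:**
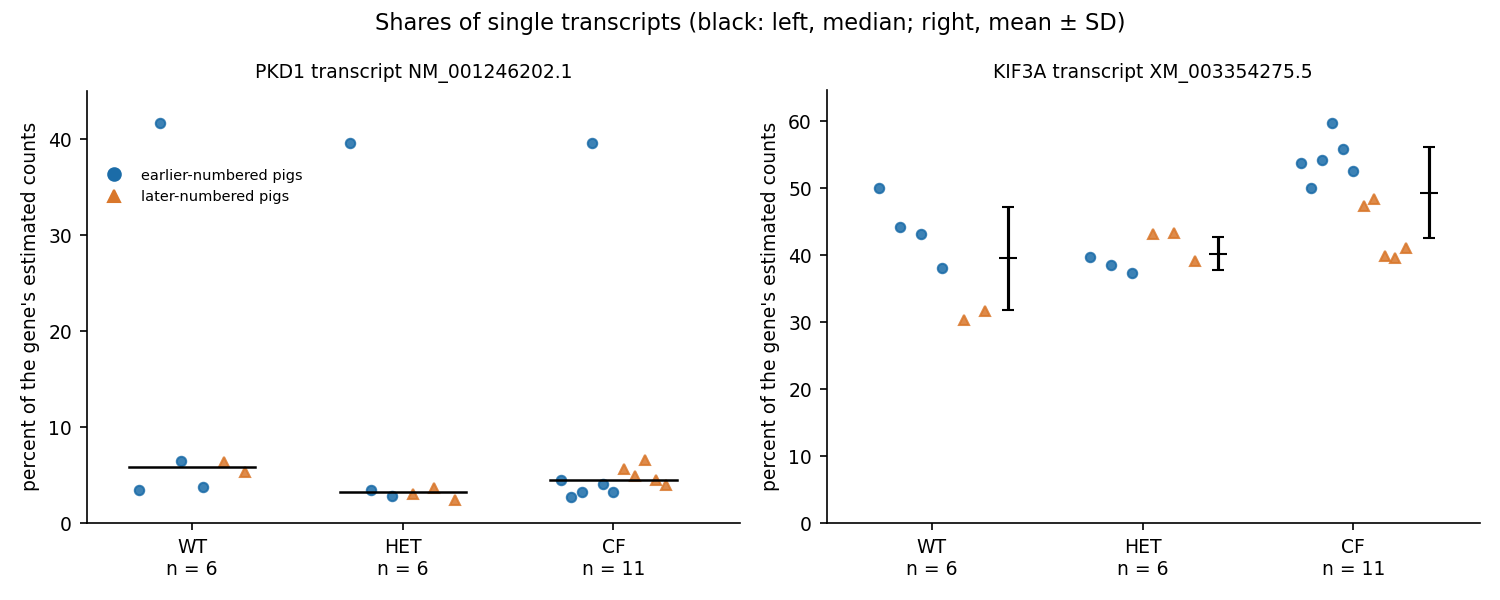
Share of a gene's estimated counts (vertical axes, percent) held by the PKD1 transcript NM_001246202.1 (left, black line at the median) and the KIF3A transcript XM_003354275.5 (right, black bars for mean ± SD) in single pigs by genotype. In PKD1 1 pig of each genotype lies at 39.6% to 41.8% and the other 20 at 2.44% to 6.57%, and in KIF3A the CF pigs average 49.3% against 39.9% in non-CF pigs.

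In PKD1 the split among transcripts set 3 pigs apart. PKD1 lies at chr3:39849579-39899455 and has 5 annotated transcripts of 46 exons each. NM_001246202.1, whose annotation records 13 substitutions against the genome, took 39.7% of PKD1 counts in CF pig 4, 39.6% in HET pig 13 and 41.8% in WT pig 16, and between 2.44% and 6.57% in the other 20 pigs. XM_021085680.1 moved the other way, with 18.5% to 24.2% in the 3 pigs and 40.6% to 65.1% in the other 20. The 3 pigs carried all 3 genotype labels, belonged to the earlier-numbered pigs, and had PKD1 levels between 135.0 and 162 CPM, within the range of the others. The 3 PKD1 transcripts that were tested did not pass for CF against non-CF (smallest adjusted p = 0.77, permutation test), and NM_001246202.1, with a mean share under 10%, was not tested.

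Among the other members, the smallest p was in PKHD1. XR_002345756.1, an annotated noncoding transcript of PKHD1 with 68 exons, took 34.2 ± 3.37% of PKHD1 counts in CF and 38.8 ± 4.05% in non-CF (difference -4.61 points, permutation p = 0.0085, adjusted p = 0.057), with -8.29 points in later and -1.87 in earlier pigs. In BICC1, XM_021072802.1 took 45.3 ± 4.10% in CF and 49.5 ± 3.61% in non-CF (permutation p = 0.016, adjusted p = 0.082). PKD2 was split between a 5309-base transcript with 71.2 ± 4.12% and NM_001245979.1 with 28.8 ± 4.12%, without a difference by genotype (adjusted p = 0.84). For IFT88, 5 of 6 annotated transcripts have no reading frame, and together they took 64.9% to 74.3% of IFT88 counts, so that IFT88 gene counts are mostly not those of its coding transcript.

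Gene models overlap at some members. PKD1 and TSC2, on opposite strands, share 532 exon bases, INVS and TEX10 share 218, and BICC1 and the noncoding LOC110256651 share 123. The library kit marks strand, and whether the counting used it is not given in the sources used here.

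Genes around the members were described by 9 lists of polycystin, cyst and cilium genes, of which 115 different genes were tested. With edgeR 0 of 115 passed the adjusted p for CF against non-CF (0.349% of all genes did), 15 of 115 or 13% had an unadjusted p under 0.05 (13.7% of all genes), and DESeq2 called 1 or 0.87%, GLI2 (3.06% of all genes). The median log2 fold change was -0.02 beside -0.0005 over all genes, and estimates ran from -0.32 to 0.33. For CF against WT, CF against HET and HET against WT, 0 of 115 passed in each, with 15, 7 and 10 at an unadjusted p under 0.05. These were 13%, 6.09% and 8.70% of the 115, beside 14.1%, 9.89% and 7.99% of all genes.

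In the list of polycystin family and cyst-disease proteins (15 tested of 18, median -0.09) 10 estimates were lower and 0 passed. DNAJB11, a chaperone of the endoplasmic reticulum mutated in atypical polycystic disease, was 42.3 ± 10.1 CPM in CF and 52.8 ± 11.4 in non-CF (log2 fold change -0.32, adjusted p = 0.27, edgeR). DZIP1L, of the transition zone, had -0.17 (adjusted p = 0.33), with 10 of 11 CF pigs below the non-CF median for both genes.

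Of the transport machinery, 0 genes passed in the IFT-B train (15 tested of 16, median 0.02), the IFT-A train (7 of 7, median 0.01) and the kinesin-2 and dynein-2 motors (9 of 10, median 0.005). IFT27 and TRAF3IP1, both of IFT-B, had -0.18 and -0.17 (adjusted p = 0.33 and 0.36, edgeR). IFT140 and IFT43 of IFT-A had 0.09 and 0.05, with -0.08 in earlier-numbered and 0.40 in later-numbered pigs for IFT140. KIF3C and the kinesin-2 subunit KIFAP3, the partner of KIF3A, had -0.21 and 0.08, with -0.31 in earlier and 0.0028 in later pigs for KIF3C.

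Of the ciliary base and membrane, 0 genes passed in the inversin compartment (5 of 5, median -0.04), the nephrocystins and transition zone (20 of 20, median -0.04), the BBSome (8 of 9, median 0.02) and cilium assembly and membrane (20 of 20, median -0.05). ANKS6 and NEK8, partners of inversin, had -0.10 and -0.08. TMEM216 and TCTN1 of the transition zone had -0.11 and 0.17 (adjusted p = 0.29 for both, edgeR), and TTC8 and BBS1 of the BBSome -0.15 and 0.11. BBS1 had -0.06 in earlier-numbered and 0.36 in later-numbered pigs (adjusted p = 0.047 in the latter). GLIS2, mutated in nephronophthisis, had 0.26 and CEP83, of the distal appendages, -0.19 (adjusted p = 0.21 and 0.23). GLIS2 had 0.09 in earlier and 0.49 in later pigs.

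The polycystin signalling partners (16 of 16, median 0.04) held the smallest p of all lists. GLI2, a transcription factor of the hedgehog pathway that acts through the cilium, was 23.6 ± 3.97 CPM in CF and 18.8 ± 2.75 in non-CF, above the non-CF median in 11 of 11 CF pigs (log2 fold change 0.33, SE 0.09, adjusted p = 0.097 with edgeR and 0.033 with DESeq2). The estimate was 0.62 in later-numbered pigs (adjusted p = 0.025) and 0.11 in earlier ones. YAP1, an effector of the Hippo pathway, was 193 ± 25.7 CPM in CF and 169.7 ± 12.1 in non-CF (0.19, adjusted p = 0.18, edgeR), and 0.19 in both parts of the pig numbers. Among later-numbered pigs alone 3 of the 115 genes, or 2.61%, passed (BICC1, GLI2 and BBS1), where 2.27% of all genes did.

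Motile cilia were measured beside the primary cilium genes, since both share transport proteins. The summed CPM of 14 motile cilium genes was low, between 53.4 and 76.1 in CF and between 62.2 and 103 in non-CF pigs, and for CF against non-CF 0 of 11 tested passed with edgeR (2 at an unadjusted p under 0.05) or DESeq2. For CF against WT 1 of 11 passed with edgeR (0.349% of all genes did), DNAH5, an axonemal dynein heavy chain. It had 47.8 and 51.4 CPM in WT pigs 22 and 23, between 5.42 and 7.08 in the 4 other WT pigs, between 3.58 and 6.98 in HET and between 3.33 and 7.90 in CF. The values of all WT pigs but these 2, both later-numbered, lay within the CF range. The log2 fold change was -1.98 (SE 0.38, adjusted p = 0.024), and -1.97 with DESeq2 (adjusted p = 0.0017). Without WT pig 22 it was -1.55 (adjusted p = 0.062), without WT pig 23 -1.47 (adjusted p = 0.046) and without CF pig 7 -1.94 (adjusted p = 0.051). Against non-CF it was -1.29 with edgeR (adjusted p = 0.16) and -0.096 with DESeq2 (adjusted p = 0.81). For CF against HET and HET against WT 0 of 11 passed (1 and 2 at an unadjusted p under 0.05). SPAG6 was at or near 0 throughout, with at most 0.065 CPM, and was not tested. The defining regulators FOXJ1 and MCIDAS had mean levels of 9.19 and 1.54 CPM.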

How the data were processed

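RNA-Seq of kidney cortex from 23 pigs was analysed. The authors pseudoaligned reads to Sscrofa11.1 transcripts with kallisto and deposited estimated counts and TPM per transcript, the latter divided by effective length and scaled to a constant sum. The estimated counts were summed to 26687 symbols and rounded. Differences were tested with edgeR 4.0.16 (R 4.3.3): filterByExpr, TMM, quasi-likelihood test, Benjamini-Hochberg adjustment over 20921 genes, limit 0.05. CF against non-CF was fitted to all 23 libraries, and the 3 labels pairwise in a second fit across all 3 labels. A prior count of 2 was added for log2 CPM. Tested on simulated data for CF against non-CF (20809 genes), edgeR recovered 64% of genes changed by 0.5 and 98% of those changed by 1 on the log2 scale. Of the genes called there, 5.26% were false with edgeR and 11.5% with DESeq2, above its limit of 5%. Genes called with DESeq2 alone are to be read with that in mind.

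Permutation tests used 100000 resamples, or all regroupings for groups under 10. DESeq2 1.42.0, limma 3.58.1, Python 3.11.15, numpy 2.4.6, scipy 1.17.1, pandas 2.3.3, pysam 0.24.0 and matplotlib 3.10.9 were also used, and genome and gene models came from RefSeq (Sscrofa11.1). The interaction term, transcript shares within parts of the pig numbers, the GC gap, the KIF3A groupings and the leave-one-out values of BICC1 and DNAH5 were added after seeing the data. The alternatives are given in the closing section.

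The members and gene lists were chosen with earlier results of these data known. Named were the members, CFTR, in each list the 2 genes with the smallest p and any that passed, and the 3 genes most like each member. Genes called only in the later-numbered pigs or with DESeq2, and the motile cilium genes, were named after their values were seen. There were 10 marker lists: motile cilia, immune, erythroid, stroma, endothelium, nephron progenitor, podocyte, proximal tubule, collecting duct, and loop of Henle with distal tubule. For CF against non-CF 0 genes of them passed with edgeR (0 to 3 a list at an unadjusted p under 0.05), while DESeq2 called 3 of 7 in loop of Henle and distal tubule, 1 of 10 in collecting duct (ATP6V1B1, higher) and 1 of 8 in erythroid (RHAG, lower), beside 3.06% of all genes. With edgeR, genes called among later-numbered pigs were 3 of 7 in loop of Henle and distal tubule (all lower), 3 of 10 in collecting duct (1 higher, 2 lower), 1 of 6 in endothelium (lower) and 0 in 6 other lists, beside 2.27% of all genes. The erythroid list in these pigs is not reported here.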

Additional observations from a re-analysis of the deposited data

Results flagged for a closer look

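Each of the 2 groups of 6 pigs was examined for a pig far from the others, in the CPM of the 7 members and in the shares of their main transcripts, 72 groups of values in all, and 4 stood out, where chance alone gives about 1 in 20. The PKD1 transcript NM_001246202.1 took 39.6% in HET pig 13 against 2.44% to 3.61% in the other HET pigs, and 41.8% in WT pig 16 against 3.50% to 6.47% in the other WT pigs. XM_021085680.1 of PKD1 took 22% in HET pig 13 against 50.9% to 57.8%. These 3 are not independent, since shares of 1 gene sum to a whole. BICC1 was 247 CPM in WT pig 17 against 193 to 213 CPM in the other WT pigs.

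The effect of CF differed between later-numbered and earlier-numbered pigs at an unadjusted p under 0.05 for 3 members, by an edgeR interaction term. The difference, later minus earlier, was -0.49 on the log2 scale for BICC1 (unadjusted p = 0.00011, adjusted p = 0.069), 0.49 for PKD1 (unadjusted p = 0.015, adjusted p = 0.36) and -0.28 for KIF3A (unadjusted p = 0.031, adjusted p = 0.43). None passed adjustment over all genes, and 10.1% of genes had an unadjusted p under 0.05.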

How the results depend on the processing

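Over the 4 comparisons, alternatives gave 840 estimates for members, of which 779 kept their direction and their side of the limit, 60 changed direction without passing and 1 passed. With later-numbered pigs alone 1 member passed (BICC1, -0.38), with DESeq2 1 of the 115 cilium genes (GLI2). Leaving out each library in turn gave 0 members and 0 of the 115 cilium genes passing, with 0 as lowest and highest. For CF against non-CF the sign changed for PKD1 (-0.11) and BICC1 (0.10) in earlier-numbered pigs alone, for IFT88 with upper-quartile scaling (-0.00459) and in later-numbered pigs (-0.040), and for KIF3A with length-scaled counts (-0.031) and in later-numbered pigs (-0.091). For CF against WT it changed for KIF3A with upper-quartile scaling (-0.025), no filter (-0.000330) and length-scaled counts (-0.079). For HET against WT it changed for PKD1 with the pig-number term (0.013) and for BICC1 with median-of-ratios scaling (0.00519), DESeq2 (0.00547), length-scaled counts (0.00306) and the pig-number term (0.036). The cause was not tested. Where leaving out 1 library changed a sign, the ranges were -0.016 to 0.028 (IFT88, CF against non-CF), -0.013 to 0.15 (PKD1), -0.052 to 0.041 (IFT88) and -0.034 to 0.052 (KIF3A) for CF against WT, -0.019 to 0.16 (PKD1) and -0.010 to 0.050 (IFT88) for CF against HET, and -0.10 to 0.084 (PKD1), -0.00554 to 0.068 (PKD2), -0.076 to 0.024 (IFT88) and -0.042 to 0.053 (BICC1) for HET against WT. For CF against non-CF it also moved the estimate by over 1.5 times, with no change of sign, for PKD1 (0.027 to 0.12), PKD2 (0.022 to 0.062) and KIF3A (0.032 to 0.095).

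Of 21 pairs of members, 0 passed with log2 CPM, 13 with log2 TPM (BICC1 and KIF3A among them) and 1 after removal of genotype means (BICC1 and KIF3A, r = 0.62, adjusted p = 0.037, permutation test). All TPM of a pig share 1 sum, and the count with log2 TPM has no share over pairs of other genes beside it. The exact Mann-Whitney U test on median-of-ratios counts called 0 members (lowest adjusted p = 0.52). Counts of all genes differed by over 1.5 times between tools: 73 with edgeR, 507 with DESeq2 and 46 with limma-voom. No paired analysis was possible because the genotype labels share no pig number. Shares of transcripts are model estimates whose own uncertainty is not in the values used here, and replicates are single pigs whose litter is not known.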
